A study of Mus musculus with 8 samples.

Results

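The type I interferon-stimulated genes are the transcripts that cells raise when interferon alpha or beta binds its receptor, and they were followed here in single microglia of the mouse lumbar spinal cord. The list held 40 gene symbols, chosen by name with earlier results of these data known, and 39 of them were found by exact symbol among the 27998 genes of the deposited tables. Mx2 was not analysed here. Lumbar cord cells were sorted for the YFP that Cx3cr1-creER-yfp expresses, and each sort was made into a 10x Genomics 3′ library that counts transcripts by unique molecular identifiers (UMIs). Control animals were Cx3cr1-creER-yfp/+ and A20 cKO animals were Cx3cr1-creER-yfp/+; Tnfaip3 fl/fl, both on C57BL/6. Tamoxifen was given so that Cre removes the floxed gene, Tnfaip3, which encodes the ubiquitin-editing enzyme A20, from Cx3cr1-expressing cells. Each genotype was sampled naive and on days 1, 2 and 3 after transection of both sciatic nerves, which gave 8 libraries with 1 library per group. Each library pooled the cords of 3 young adult animals, so no spread between animals could be measured and no test between conditions was made.

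Type I interferons bind the receptor formed by IFNAR1 and IFNAR2, and the kinases JAK1 and TYK2 then phosphorylate transcription factors, STAT2 among them. Together with IRF9 these form the complex ISGF3, which binds the interferon-stimulated response element (ISRE) in promoters. The induced proteins sense viral RNA, cut it, block its translation, attach the ubiquitin-like protein ISG15 to other proteins, or hold virus particles at membranes, and microglia are known to carry such a programme in infection, ageing and injury.

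A level is given as UMIs per 1000000 UMIs of all kept cells (CPM), and a ratio as log2 of CPM in the first library over CPM in the second, with a 95% interval. All intervals cover counting error only. Where single libraries are compared, the share of all genes with an interval that excludes equal levels is not given. Member counts of such intervals are therefore not read as particular to the members. The control libraries held 568, 3323, 3585 and 2117 kept cells from naive to day 3. Those of A20 cKO held 2922, 886, 667 and 558, and values below follow this order. The summed UMIs ranged from 1620481 in control naive to 15817426 in control day 2. Control naive was the shallowest library, and over the 19 members given in every library below the median 95% counting interval was ±26.0% of the level there, against ±4.99% to ±11.2% in the other libraries.

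Barcode sharing set some libraries apart. The control day 3 library and the 4 A20 cKO libraries shared more cell barcodes with each other, a median of 13.7 per 1000000 barcode pairs (range 5.41 to 67.6), than the control naive, day 1 and day 2 libraries shared among themselves, with a median of 1.59 (range 1.48 to 2.29). Pairs with 1 library of each set had a median of 1.94 (range 0.797 to 8.83), and control naive shared 8.83 with A20 cKO day 1 and 8.51 with A20 cKO day 3, above the lowest pair among the 5 libraries. Between 1.59% and 9.14% of a library's barcodes also occurred in another library. Leaving those barcodes out kept each of 33 member counts and medians and 8 shares of cells within its counting error or within 1.5 times. The same 5 libraries held more UMIs of several other cell types. The neutrophil markers S100a8, S100a9, Retnlg and Ly6g had 0 UMIs in the control naive, day 1 and day 2 libraries, and their summed level was 20.1 to 35.0 CPM in the 5 others, with 3 or 4 of the 4 markers detected. The 4 choroid plexus markers summed to at most 0.0711 CPM against 127 to 397 CPM, with 1 to 4 of them detected and a single gene carrying the sum in A20 cKO day 1, the 5 monocyte markers to 2.21 to 3.70 against 27.0 to 86.0 CPM, and the 6 oligodendrocyte markers to 137 to 149 against 218 to 286 CPM. NK and T cell markers did not follow this split, and B cell markers followed it in the opposite direction. The 4 NK cell markers had 12.8 CPM in control day 2 and at most 0.393 CPM elsewhere, the T cell markers had 20 UMIs there and at most 3 elsewhere, and the B cell markers had 38.2 to 51.1 CPM in control naive, day 1 and day 2 and 21.2 to 37.2 CPM in the 5 others. The part of these differences in the results below was not tested, and any comparison of control day 3 or an A20 cKO library with control naive, day 1 or day 2 crosses the 2 sets. Most cells carried microglia markers in every library, with Tmem119 in 96.2% to 100%, P2ry12 in 90.1% to 100% and Cx3cr1 in 90.5% to 98.9% of kept cells. P2ry12 was found in 90.1% to 92.8% of cells on A20 cKO days 1 to 3 and in at least 99.8% in control naive, day 1 and day 2, and the summed level of 9 microglia markers went from 26511 CPM in control naive to 12205 CPM in A20 cKO day 2. Fewer cells of a type and less RNA per cell cannot be told apart in these sums. Tnfaip3 itself had 6.83 to 25.3 CPM in the control and 42.3 to 67.7 CPM in the A20 cKO libraries. The counts lie at the 3′ end of the transcript and no source used here names the deleted exons, so they do not check the deletion.

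The promoters of many members carry the ISRE core, which was searched as GAAANNGAAA on either strand of the 300 bases around each RefSeq transcription start. Of the 40 members 30 had a window, and 13 of them (43.3%) held at least 1 match, against 3.99% of 27025 genes with a window. Matches lay before the start in 9 members, and these are shown because they hold the core of the element that ISGF3 binds. Binding at these matches was not tested. Each is written 5′ to 3′ on the strand of the gene in build GRCm38.p6, with the matches in capitals. On the opposite strand the core reads TTTCNNTTTC, and overlapping matches are run together.
Isg15: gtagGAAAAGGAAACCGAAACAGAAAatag
Oas1a: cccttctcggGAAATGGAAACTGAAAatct
Bst2: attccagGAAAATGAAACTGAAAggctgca
Oas3: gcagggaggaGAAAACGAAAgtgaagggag
Ifit1: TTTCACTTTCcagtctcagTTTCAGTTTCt
Ifit3: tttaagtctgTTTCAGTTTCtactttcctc
Ifit3b: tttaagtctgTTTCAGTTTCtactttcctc
Rsad2: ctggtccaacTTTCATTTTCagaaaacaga
Trim30a: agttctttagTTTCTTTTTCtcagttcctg

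The Isg15 stretch, chr4:156200871-156200900 on the minus strand, held 3 overlapping matches, the nearest of which began 66 bases before the start. The stretches of Oas1a (chr5:120907526-120907555) and Bst2 (chr8:71537580-71537609) held 2 overlapping matches each, and that of Ifit1 (chr19:34640785-34640814) held 2 separate ones. The 30 bases of Ifit3 (chr19:34583397-34583426) and Ifit3b (chr19:34607793-34607822) were the same letter for letter, and both genes had a further match upstream of the stretch shown. The other stretches lie at chr5:120777715-120777744 (Oas3), chr12:26456553-26456582 (Rsad2) and chr7:104465210-104465239 (Trim30a), and in Ifih1, Ddx58, Ifitm3 and Eif2ak2 the matches fell at or after the start. In the comparison of control day 3 with control naive the 12 members with a match that could be compared had a median log2 ratio of 2.54 (0.76 to 4.34), and the 16 without a match had one of 1.79 (−0.27 to 5.53). The 2 ranges overlapped over most of their width, and Ifit2, the member with the highest ratio, had no match in its windows.

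The 4 IFIT genes, whose proteins bind foreign RNA and block its translation, lie together on chr19:34550694-34650009. Ifit3 had 41.3, 16.6, 19.4 and 363 CPM across the control libraries and 273, 258, 443 and 466 CPM across the A20 cKO libraries. Ifit2 had 4.94, 5.05, 8.16 and 242 CPM in the control libraries in the same order and 169, 188, 225 and 305 CPM in the A20 cKO libraries. For both genes the control naive, day 1 and day 2 libraries were low and all 5 other libraries were high, with no overlap between the 2 sets. Ifit1 and Ifit3b followed the same order, with at most 13.6 CPM in the 3 low libraries and 79.4 to 165 CPM in the other 5. Of the near-identical pair Ifit3 and Ifit3b, 6.34% of the 91-base stretches in the last 500 bases of Ifit3 transcripts also occur in another gene, Ifit3b.

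The next group attaches ISG15 to proteins or removes it. Isg15, the ubiquitin-like modifier itself, had 37.6, 23.3, 27.5 and 236 CPM in the control libraries and 182, 249, 349 and 349 CPM in the A20 cKO libraries. Herc6, the main ISG15 ligase of mouse cells, had 35.2, 17.1, 27.1 and 146 CPM and then 117, 136, 164 and 187 CPM. Usp18, which removes ISG15 and dampens receptor signalling, went from 11.7 to 13.5 CPM in the first 3 control libraries to 91.5 CPM on day 3 and 110.3 to 201 CPM in A20 cKO. Uba7, the ISG15-activating enzyme, had another pattern. It had 80.2, 25.4, 31.1 and 66.8 CPM in the control libraries and 65.5 to 92.9 CPM in the A20 cKO libraries, so that its control naive level lay within the A20 cKO range. Of the 3′ stretches of Uba7, 26.3% are shared with the overlapping gene model Gm20661, so its counts are less certain.

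OAS proteins make the short oligoadenylates that activate RNase L, and their genes lie on chr5 between 114896936 and 120907521 together with the OAS-like genes. Oasl2 had 32.1, 9.74, 15.0 and 234 CPM in the control libraries and 214, 314, 429 and 458 CPM in the A20 cKO libraries. Oas1a had 14.2, 5.69, 10.1 and 52.7 CPM and then 77.2, 78.9, 128 and 146 CPM, with 42.2% of its 3′ stretches shared with Oas1g. Both were higher in each A20 cKO library than in control naive, day 1 and day 2, and Oas1a was higher in each A20 cKO library than in control day 3 too. Oas2 and Oas3 had 0 UMIs in control naive. Oas2 had 12.2 CPM in control day 3 and 41.9 to 91.7 CPM in A20 cKO, and Oas3 had 4.25 CPM and 15.5 to 37.8 CPM. Against a floor of 3 UMIs in control naive, A20 cKO naive was at least 22.7-fold higher for Oas2 and at least 8.36-fold higher for Oas3.

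The sensors recognise viral RNA or unusual nucleic acid in the cytosol. Eif2ak2, the kinase PKR that halts translation, had 42.0, 38.8, 48.2 and 216 CPM in the control libraries and 175, 183, 253 and 278 CPM in the A20 cKO libraries. Zbp1, which senses Z-form nucleic acid and can start necroptosis, had 9.26, 6.83, 10.5 and 118 CPM and then 85.2, 124, 202 and 207 CPM. The RIG-I gene Ddx58 had 45.7 CPM in control naive, 17.2 CPM on day 1, 77.8 CPM on day 3 and 71.7 to 105 CPM in A20 cKO. Ifih1, which encodes MDA5, was at 15.2 to 17.3 CPM in the first 3 control libraries and at 86.6 to 126 CPM in the other 5.

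Among enzymes that act on nucleotides and RNA, Rsad2, the viperin gene, had 4.94, 2.77, 3.10 and 106 CPM in the control libraries and 62.1, 102, 112 and 105 CPM in the A20 cKO libraries. Isg20, an RNA exonuclease, had 6.17, 4.41, 5.31 and 29.9 CPM and then 22.4, 32.0, 42.5 and 39.3 CPM. Cmpk2, a nucleotide kinase next to Rsad2 in the genome, had its highest level, 27.3 CPM, in control day 3. Mx1, an antiviral GTPase, had 9.26, 3.27, 4.43 and 87.4 CPM in the control libraries and 46.3, 58.1, 82.1 and 90.9 CPM in the A20 cKO libraries. For Rsad2, Cmpk2 and Mx1 control day 3 was above A20 cKO naive, while Oas1a, Oas2 and Oas3 had the opposite order.

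The genes of the membrane proteins IFITM3, which blocks virus entry, and BST2, which tethers virus particles, were high in the same 5 libraries. Ifitm3 had 59.2, 59.9, 130.1 and 561 CPM in the control libraries and 781, 883, 1818 and 1771 CPM in the A20 cKO libraries. Bst2 had 249, 200.3, 254 and 468 CPM and then 637, 730.1, 1200.1 and 1196 CPM. Both were higher in every A20 cKO library than in control day 3, and Ifitm3 was the only member at least 2-fold above control naive by control day 2.

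PARP9, PARP14 and DTX3L act together in ADP-ribosylation and ubiquitination. Parp14 had 65.4, 31.0, 46.5 and 187 CPM in the control libraries and 132, 154, 189.5 and 209.7 CPM in the A20 cKO libraries. Dtx3l had 29.6, 22.5, 22.6 and 96.6 CPM and then 69.7, 76.6, 94.3 and 97.2 CPM. The levels of Dtx3l in control day 3 and in A20 cKO day 2 and day 3 were close to each other. The nuclear and ubiquitin-linked regulators were similar in shape. Trim30a, a TRIM ligase that restrains NF-kB signalling, had 93.2, 75.4, 80.9 and 278 CPM and then 255, 241, 398 and 371 CPM. Sp100, a nuclear body protein, had 46.9, 24.8, 38.8 and 176 CPM and then 166, 171, 251 and 282 CPM.

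Of the remaining 7 members, Ifi27l2a had 151, 57.8, 238 and 773 CPM in the control libraries and 586, 746, 1402 and 1351 CPM in the A20 cKO libraries. Lgals3bp, a secreted glycoprotein, had 146, 141, 157 and 215 CPM and then 488, 434, 709 and 937 CPM, with every A20 cKO library above every control library. Ifi35 stayed within 116 to 210.3 CPM in all 8 libraries. Ifi44 had at most 3.43 CPM in the control libraries and 10.6 to 46.8 CPM in A20 cKO. The plot of levels by library shows the shared shape and these exceptions.

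**Figure D1:**
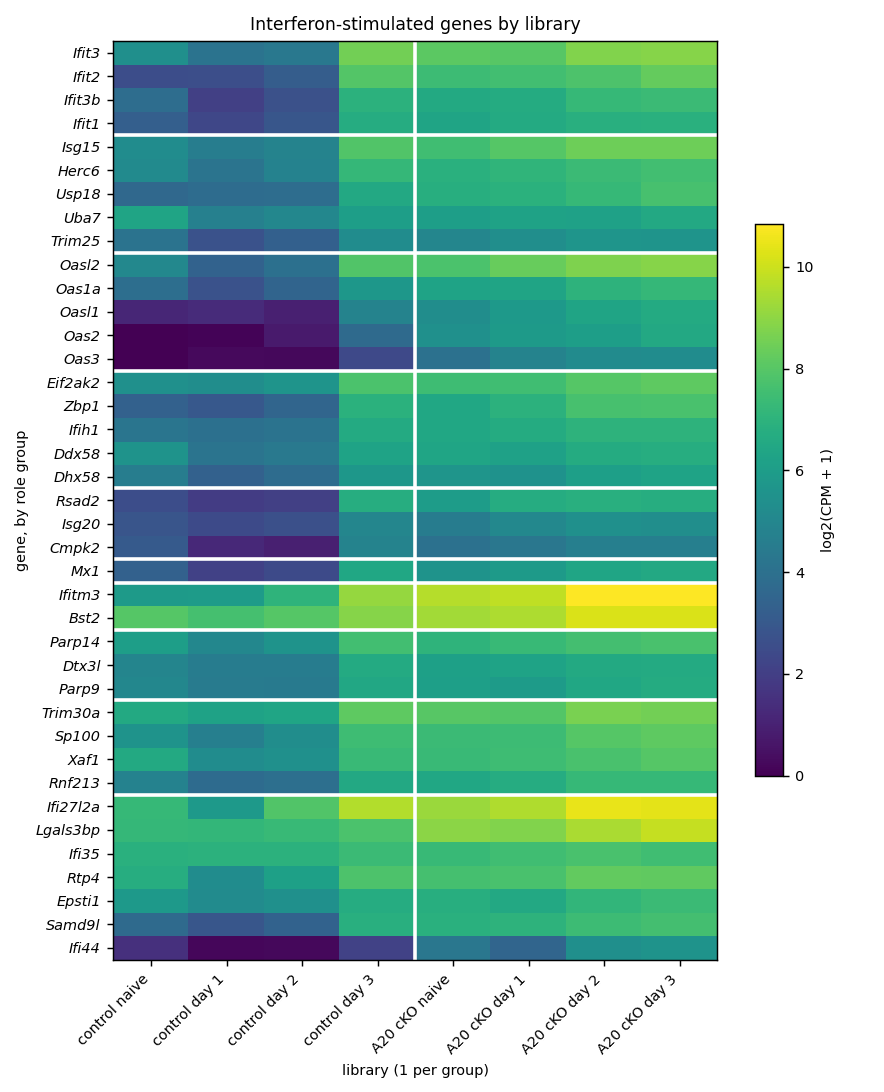
Levels of the 39 members as log2(CPM + 1) in the 8 libraries, with rows grouped by role and a white line between control and A20 cKO. The control naive, day 1 and day 2 columns are darker than the 5 others for most genes, while Ifi35 differs little, Uba7 is lowest on control days 1 and 2, and Oas2, Oas3 and Ifi44 are near 0 in the first 3 columns.

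Days 1 and 2 of the control series were compared with control naive to find when the genes are first raised after nerve injury. Most members were lower on day 1 than in control naive, and none was at least 2-fold higher. The summed level of the 39 members was 1746 CPM (1683 to 1812) in control naive, 1118 CPM (1101 to 1136) on day 1 and 1589 CPM (1569 to 1608) on day 2. A gene was compared if both libraries together held at least 100 of its UMIs, and 28 members could be compared on day 1. Of these 13 were at least 2-fold lower and 0 at least 2-fold higher, while of all genes compared 7.25% were at least 2-fold lower and 3.82% at least 2-fold higher. The median log2 ratio of the members was −0.95, and that of all genes was −0.13. Oasl2 (−1.73, −2.19 to −1.23), Uba7 (−1.66, −1.95 to −1.36) and Trim25 (−1.59, −2.21 to −0.88), an E3 ligase that acts on RIG-I, had the smallest ratios. Usp18 (0.13, −0.53 to 0.92), Ifi35 (0.09, −0.13 to 0.32) and Ifitm3 (0.01, −0.29 to 0.34) had the largest, and their intervals held 0. Control day 1 also stood apart by its immediate-early genes, whose summed level was 21202 CPM against 1332 CPM in control naive. Their part in the lower levels was not tested.

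On day 2 more members were below than above control naive, with 14 intervals below 0 and 2 above. Of 31 members compared 6 were at least 2-fold lower and 1 at least 2-fold higher, with shares among all genes of 6.28% and 5.92%, and the median log2 ratio was −0.41. Uba7 (−1.37, −1.65 to −1.08), Ifit3b (−1.36, −2.03 to −0.59) and Ddx58 (−1.20, −1.56 to −0.81) had the smallest ratios. Ifitm3 (1.13, 0.84 to 1.45), Ifi27l2a (0.66, 0.47 to 0.85) and Ifit2 (0.64, −0.30 to 1.97) had the largest. The intervals of Ifitm3 and Ifi27l2a lay above 0, and that of Ifit2, with 8 UMIs in control naive, did not.

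Control day 3 was compared with control naive across the 2 sets of libraries. All but 1 of the 36 members compared had a ratio above 0, with 29 at least 2-fold higher and 0 at least 2-fold lower. Of all genes 8.76% were at least 2-fold higher and 2.32% at least 2-fold lower. The median log2 ratio was 1.97 against 0.07 for all genes, and 35 intervals lay above 0. Ifit2 (5.53, 4.63 to 6.83), Rsad2 (4.34, 3.44 to 5.64) and Oasl1 (4.19, 2.64 to 7.57) had the largest ratios, resting on 8, 8 and 2 UMIs in control naive. Uba7 (−0.27, −0.55 to 0.03), Ifi35 (0.50, 0.28 to 0.74) and Lgals3bp (0.56, 0.36 to 0.76) had the smallest. By role the IFIT genes had a median of 3.33, the OAS and OAS-like genes 2.85, the sensors 2.35 and the PARP9, PARP14 and DTX3L group 1.51. The summed level was 6254 CPM (6197 to 6312) on day 3.

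A20 cKO naive was compared with control naive to see whether loss of A20 alone goes with higher levels. Without injury 31 of 39 members were at least 2-fold higher in A20 cKO and 0 at least 2-fold lower, while of all genes 7.43% were higher and 2.22% lower. The median log2 ratio was 1.96 against 0.04 for all genes, and it stayed at 1.96 with Oas2 and Oas3 set at their lower bounds. Ifit2 (5.01, 4.11 to 6.31) had the largest ratio among members with a UMI in both libraries, and the bounds of Oas2 and Oas3 given above do not place them in this order. Uba7 (−0.30, −0.57 to −0.01), Ifi35 (0.43, 0.22 to 0.66) and Xaf1 (0.77, 0.53 to 1.02), an apoptosis-linked gene, had the smallest. This comparison crosses the 2 sets of libraries, so genotype and library set cannot be told apart in it. Against control day 3, a library of the same set but after injury, A20 cKO naive had 4 members at least 2-fold higher and a median log2 ratio of −0.13. Of all genes 0.964% were at least 2-fold higher there.

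On days 1 and 2 the A20 cKO and control libraries were far apart in nearly all members. Both comparisons cross the 2 sets of libraries, so genotype and library set cannot be told apart in them. On day 1, 35 of 36 members compared were at least 2-fold higher in A20 cKO, with 15.5% of all genes higher and 3.25% lower, and the median log2 ratio was 2.92. Oas2 (9.13, 7.21 to 15.0), with 1 UMI in control day 1, Oasl1 (5.22, 4.59 to 5.98) and Ifit2 (5.21, 4.86 to 5.59) had the largest ratios, and Ifi35 (0.54, 0.40 to 0.68), Epsti1 (1.34, 1.12 to 1.55) and Parp9 (1.51, 1.23 to 1.77) the smallest. On day 2, 37 of 38 members were at least 2-fold higher in A20 cKO, with 10.7% of all genes higher and 4.66% lower, and the median was 2.97. Ifi44 (7.52, 6.16 to 10.0), Oas3 (7.36, 5.99 to 9.88) and Oas2 (6.50, 5.69 to 7.59) had the largest ratios, with 3, 3 and 11 UMIs in control day 2. The smallest were those of Ifi35 (0.75, 0.62 to 0.88), Uba7 (1.24, 1.00 to 1.47) and Epsti1 (1.69, 1.51 to 1.87). Against control day 3, which differs in day as well as in genotype, the members at least 2-fold higher numbered 4 on day 1 and 8 on day 2, with medians of 0.02 and 0.41. The shares and medians of all genes are not given for these comparisons, so the counts are not read as particular to the members.

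**Figure D2:**
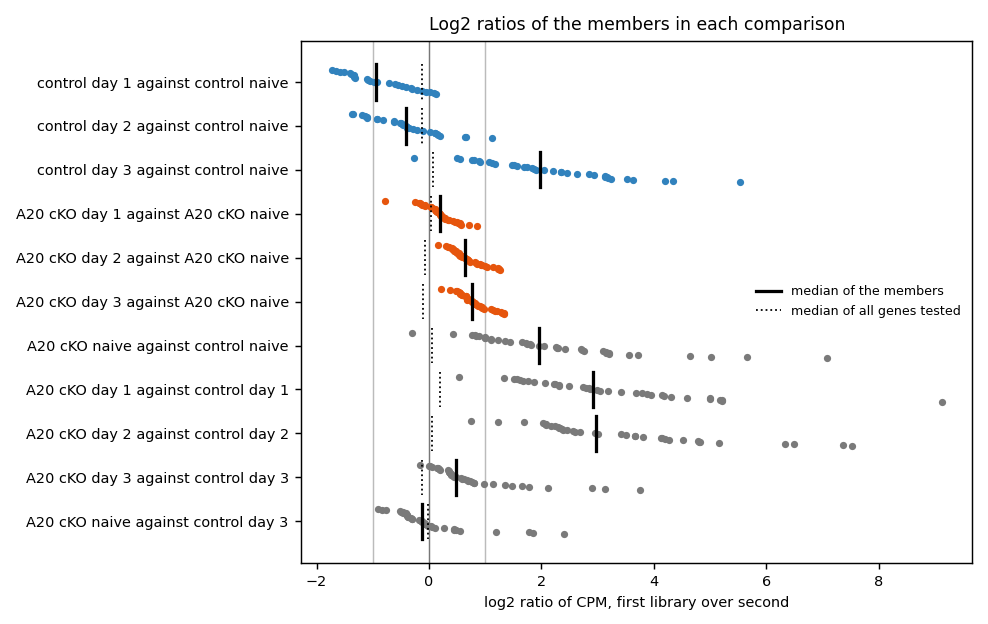
Log2 ratios of CPM of the members in 11 comparisons, 1 point per member with at least 100 UMIs in both libraries together, with solid bars for the median of the members, dotted bars for the median of all genes compared and grey lines at a 2-fold difference. Medians lie between 1.96 and 2.97 where control day 3 or A20 cKO is set against control naive, day 1 or day 2, and between −0.95 and 0.77 elsewhere.

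Within A20 cKO the members were compared with A20 cKO naive, all among libraries of 1 set. A20 cKO naive differed from A20 cKO days 1 to 3 in other measures too. It shared 9.11 to 11.5 barcodes per 1000000 pairs with them, against 33.4 to 67.6 among those days, its choroid plexus markers had 127 CPM against 388 to 397 CPM, its microglia markers 20030 CPM against 12205 to 14283 CPM, and its immediate-early genes 4494 CPM against 1004, 915 and 3634 CPM. The part of these differences in the ratios was not tested. On day 1 the differences were small. Of 39 members 0 were at least 2-fold higher or lower, with 1.56% and 1.39% of all genes past those limits, and the median log2 ratio was 0.20. Oas3 (0.86, 0.45 to 1.26), Rsad2 (0.72, 0.51 to 0.92) and Oasl1 (0.57, 0.29 to 0.84) had the largest ratios, and Ifi44 (−0.79, −1.40 to −0.26), Epsti1 (−0.25, −0.45 to −0.06) and Ddx58 (−0.18, −0.41 to 0.04) the smallest.

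On days 2 and 3 nearly all members were modestly higher than in A20 cKO naive. On day 2 the interval lay above 0 for 38 of 39 members, 6 were at least 2-fold higher and 0 at least 2-fold lower, with shares among all genes of 2.86% and 2.65%, and the median was 0.65 against −0.07 for all genes. Ifi27l2a (1.26, 1.20 to 1.32), Zbp1 (1.25, 1.09 to 1.40) and Oas3 (1.23, 0.85 to 1.60) had the largest ratios and Uba7 (0.16, −0.07 to 0.39), Ddx58 (0.31, 0.11 to 0.50) and Epsti1 (0.33, 0.16 to 0.50) the smallest. On day 3 the interval lay above 0 for all 39 members, 8 were at least 2-fold higher and 0 at least 2-fold lower, with shares among all genes of 1.92% and 2%, and the median was 0.77. Ifi44 (1.34, 0.99 to 1.69), Oasl1 (1.34, 1.09 to 1.58) and Oas3 (1.29, 0.90 to 1.67) had the largest ratios and Ifi35 (0.22, 0.06 to 0.37), Ddx58 (0.38, 0.17 to 0.58) and Dtx3l (0.48, 0.26 to 0.69) the smallest. Oas2, Oas3, Oasl1 and Oasl2 were among the 8. The count on day 3 depended on how cells were averaged, with 17 members at least 2-fold higher when each cell had equal weight and 13 relative to the median gene.

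The day 3 libraries of the 2 genotypes are both of the same set, but they differed in other measures. Microglia markers had 18766 CPM in control day 3 and 13824 CPM in A20 cKO day 3. In the same order choroid plexus markers had 220 and 394 CPM, monocyte markers 27.0 and 60.6 CPM, and neutrophil markers 25.7 and 20.1 CPM. The part of these differences in the ratios was not tested. A20 cKO day 3 was higher than control day 3 for most members, with ratios that differed widely along the list. The interval lay above 0 for 32 of 39 members, 9 were at least 2-fold higher and 0 at least 2-fold lower, with shares among all genes of 1.86% and 2.4%, and the median log2 ratio was 0.48. Ifi44 (3.75, 3.14 to 4.45), Oas3 (3.13, 2.55 to 3.78) and Oas2 (2.90, 2.55 to 3.28) had the largest ratios. Lgals3bp (2.12, 2.03 to 2.22), Oasl1, Ifitm3 (1.66, 1.60 to 1.72), Oas1a, Bst2 and Usp18 made up the other 6 past 2-fold. Cmpk2 (−0.15, −0.60 to 0.26), Rsad2 (−0.00, −0.21 to 0.20) and Dtx3l (0.01, −0.21 to 0.22) had the smallest ratios, and the 4 IFIT genes lay between 0.17 and 0.43.

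A20 cKO naive was also compared with control day 3, since both had high levels, the first without and the second with injury. Of the 39 members 4 were at least 2-fold higher in A20 cKO naive and 0 at least 2-fold lower, with shares among all genes of 0.964% and 1.49%, and the median log2 ratio was −0.13. The interval lay below 0 for 21 members and above 0 for 9. Ifi44 (2.41, 1.82 to 3.10), Oas3 (1.84, 1.29 to 2.47), Oas2 (1.77, 1.44 to 2.13) and Lgals3bp (1.18, 1.10 to 1.27) were the 4 higher members. Mx1 (−0.92, −1.10 to −0.74), Cmpk2 (−0.83, −1.15 to −0.51) and Rsad2 (−0.77, −0.93 to −0.61) had the smallest ratios, and all 4 IFIT genes lay between −0.52 and −0.38. Isg15 (−0.38, −0.48 to −0.28) was lower as well. These comparisons share control day 3, and the values are given side by side for description.

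**Figure D3:**
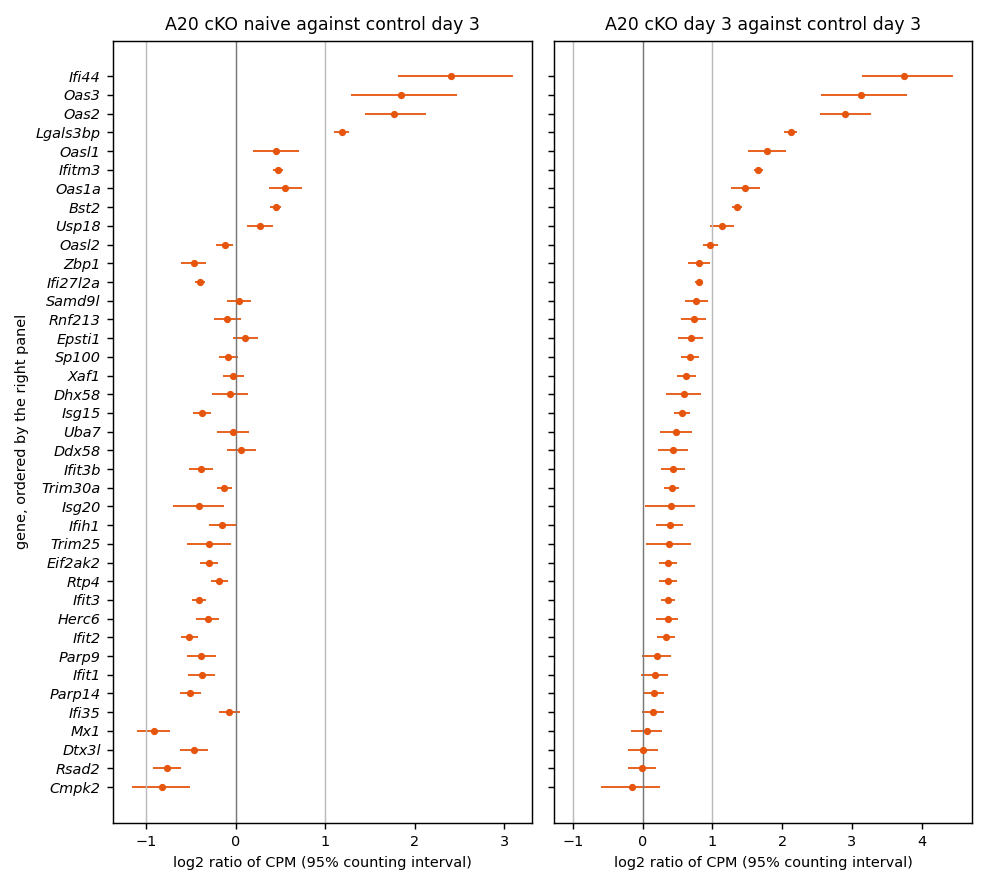
Log2 ratios of CPM with 95% counting intervals for A20 cKO naive (left) and A20 cKO day 3 (right), each against control day 3, with members ordered by the right panel and grey lines at 0 and at a 2-fold difference. Ifi44, Oas3, Oas2 and Lgals3bp lie above 1 in both panels, while Mx1, Rsad2 and Cmpk2 lie between −0.92 and −0.77 on the left and near 0 on the right.

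The order of induction was read as the first day on which a member was at least 2-fold above the naive library of its genotype. In the control series no member reached this on day 1, Ifitm3 did on day 2, 28 members first did on day 3, and 10 did not on any day. Among these 10, Oas2, Oas3 and Ifi44 had fewer than 100 UMIs in both libraries together on day 3, and Uba7, Ddx58, Bst2, Xaf1, Ifi35, Lgals3bp and Epsti1 could be compared. Of all genes compared, 3.82%, 5.92% and 8.76% were at least 2-fold above control naive on days 1, 2 and 3, whether or not for the first time. Of the 39 members 38 had their highest control level on day 3, the exception being Uba7, and 30 had their lowest on day 1. Control day 3 is of another library set than the rest of the control series. Day and library set therefore cannot be told apart in the control values of day 3. In A20 cKO the starting level was already high, and 6 members (Oas3, Oasl1, Zbp1, Ifitm3, Ifi27l2a and Ifi44) first reached 2-fold on day 2, Oas2 and Oasl2 on day 3, and 31 on no day. Of all genes compared, 1.56%, 2.86% and 1.92% were at least 2-fold above A20 cKO naive on days 1, 2 and 3. The highest A20 cKO level was on day 3 for 27 members and on day 2 for 12, and the lowest in the naive library for 31. Isg15, Rsad2, Ifitm3 and Ifi27l2a were among the 12, and between days 2 and 3 their levels differed little (349 and 349 CPM for Isg15). Days of highest and lowest level are not given over all genes, so these counts are not read as particular to the members.

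At the level of single cells the question was whether few or many cells carried the transcripts. Cells were thinned to 2000 UMIs so that depth did not decide detection, which left out 20 to 310 shallower cells per library. UMIs of at least 5 members were found in 13.5% (10.7 to 16.9) of control naive, 5.30% (4.55 to 6.13) of day 1, 12.4% (11.4 to 13.6) of day 2 and 64.9% (62.6 to 67.0) of day 3 cells. The A20 cKO libraries had 56.7% (54.7 to 58.6), 61.0% (57.6 to 64.3), 94.9% (92.9 to 96.5) and 97.2% (95.4 to 98.4). Without thinning the control libraries had 28.9%, 28.8%, 50.9% and 77.2%, and those of A20 cKO had 65.8%, 73.6%, 97.3% and 98.0%. The median cell held 2 members in control naive, day 1 and day 2, 6 in control day 3, and 5, 6, 10 and 11 in A20 cKO. A class cut at 5 members is a range and not a cell type, since 223 control day 3 cells held 4 members and 217 held 5. No cell type here is known to lack these genes. The 17 kept cells with markers of another type, unthinned and with a median of 1330 UMIs against 3532 UMIs over all kept cells, held Ifit3 in 0, Bst2 in 35.3% (14.2 to 61.7) and Ifitm3 in 70.6% (44.0 to 89.7), so shares of cells with an Ifitm3 UMI are not read as microglial expression.

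The spread between cells differed among the high libraries. Member UMIs per thinned cell averaged 11.7 in control day 3, 11.1 in A20 cKO naive and 12.5 in A20 cKO day 1, with a variance 12.1, 12.8 and 13.1 times the mean. In A20 cKO day 2 and day 3 the averages were 20.8 and 22.7 and the variance 6.57 and 7.12 times the mean. The lowest 5% of cells held at most 1 member in control day 3, A20 cKO naive and A20 cKO day 1, but 4.25 and 5 members in A20 cKO day 2 and day 3. The 10% of cells with most member UMIs accounted for 33.9% to 35.4% of member UMIs in the former 3 libraries and for 22.5% and 22.4% in the latter 2. So the former 3 held cells with few and cells with many members, and in the latter 2 nearly every cell held several.

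**Figure D4:**
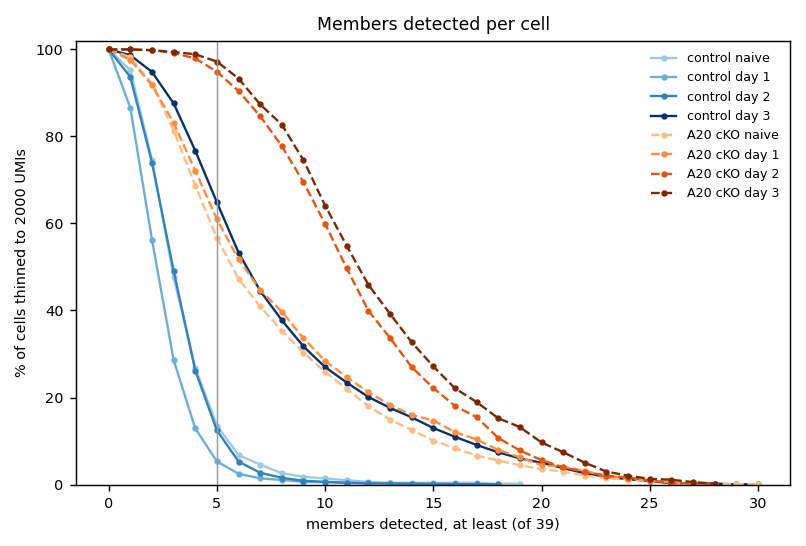
Percent of cells, thinned to 2000 UMIs, with at least the number of members on the x axis, with solid lines for control and dashed lines for A20 cKO and a grey line at 5 members. Control naive, day 1 and day 2 are at 13.5% or less at 5 members, control day 3 and A20 cKO naive and day 1 lie between 56.7% and 64.9%, and A20 cKO day 2 and day 3 are at 94.9% and 97.2%.

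For single genes the share of thinned cells with a UMI is given beside the UMIs per positive cell. That share can rise with the level per cell too, so it does not show how many cells expressed a gene. Ifit3 was detected in 5.98%, 2.45%, 3.65% and 29.7% of thinned control cells and in 22.7%, 21.9%, 41.1% and 42.9% of thinned A20 cKO cells. The UMIs per positive cell were 1.40, 1.33, 1.18 and 2.23 in the control libraries and 2.13, 2.03, 2.09 and 2.23 in the A20 cKO libraries. From A20 cKO naive to day 3 the share of positive cells was higher while the UMIs per positive cell were close to the same. Whether more cells expressed Ifit3 was not tested. Ifitm3 was found in 44.6% of control day 3, 47.7% of A20 cKO naive and 87.2% of A20 cKO day 3 cells, with 2.22, 2.83 and 3.97 UMIs per positive cell, so both were higher. Oas2 was found in at most 0.0575% of cells in the first 3 control libraries, where 0 of 502 control naive cells held it (upper limit 0.732% for cells with a UMI at this depth, not for cells expressing the gene), in 2.40% of control day 3 cells and in 6.89% to 18.4% of A20 cKO cells.

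UMIs of the members tended to occur in the same cells. Thinned cells with an Ifit3 UMI held more UMIs of the other 38 members than cells without it in every library. In control naive they held 6.13 against 3.16 UMIs per cell, in control day 3 20.1 against 7.19, in A20 cKO naive 21.7 against 7.44 and in A20 cKO day 3 28.1 against 17.0. The ratio was 2.80-fold, 2.91-fold and 3.02-fold in control day 3, A20 cKO naive and A20 cKO day 1, and 1.61-fold and 1.65-fold in A20 cKO day 2 and day 3. Among members with at least 20 UMIs the interval lay above 0 for 7 of 21 in control naive, 18 of 32 on day 1, 22 of 33 on day 2 and 36 of 36 on day 3, and for 37 of 38, 35 of 37, 30 of 38 and 30 of 38 in the A20 cKO libraries. Of all genes with at least 20 UMIs, 2.02% to 8.42% had an interval above 0. In control day 3 Rsad2 (3.64, 3.24 to 4.08), Ifit1 (3.02, 2.67 to 3.39), Ifit3b and Ifit2 had the largest log2 ratios. Uba7 had the smallest there (0.43, 0.03 to 0.82), and in A20 cKO naive its interval held 0 (−0.02, −0.42 to 0.34). On control day 1, where 79 cells held Ifit3, and among members with at least 20 UMIs there, Mx1 (4.81, 3.38 to 6.12), Rsad2 (4.76, 3.23 to 6.14) and Ifit2 (4.60, 3.41 to 5.68) had the largest ratios. Ifit3 and Ifit3b share part of their sequence, and the cells of 1 library are not replicates of a condition.

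Dividing cells were compared with the others of their own library. Cells with UMIs of at least 3 core G2/M genes numbered 1064 of 3585 in control day 2, 236 of 2117 in control day 3 and 93 of 2922 in A20 cKO naive, and 32, 106 and 50 in A20 cKO day 1, day 2 and day 3. Control naive and day 1 had 1 and 8 and were not compared. In control day 2 the summed members had 1624 CPM in dividing cells and 1576 CPM in cells without a G2/M gene, a log2 ratio of 0.04 (−0.01 to 0.10). In A20 cKO naive they had 9857 against 5603 CPM, a log2 ratio of 0.82 (0.77 to 0.86), and in control day 3 7564 against 5401 CPM, a log2 ratio of 0.49 (0.45 to 0.52). The ratio was 0.33 (0.25 to 0.41), 0.08 (0.04 to 0.12) and 0.18 (0.13 to 0.23) in A20 cKO day 1, day 2 and day 3. The intervals leave out the spread between cells. In those libraries the variance of member UMIs per thinned cell was 13.1, 6.57 and 7.12 times the mean. With cells thinned to 2000 UMIs the ratio was 0.34 (0.27 to 0.40) in control day 3, 0.82 (0.74 to 0.90) in A20 cKO naive and −0.01 (−0.09 to 0.06) in A20 cKO day 2. Ifi27l2a had the largest log2 ratio of all members in 4 libraries, with 1.10 (1.00 to 1.19) in control day 3, 1.87 (1.76 to 1.98) in A20 cKO naive, 1.19 (1.00 to 1.38) in A20 cKO day 1 and 0.99 (0.87 to 1.12) in A20 cKO day 3. In A20 cKO naive 29 of 39 members had an interval above 0 and 0 below, and in control day 3 22 of 38 did, with Uba7 (−0.41, −0.84 to −0.02) below. With thinned cells the counts were 20 of 39 and 8 of 37, with 0 below in either library. Of all genes with at least 20 UMIs, G2/M genes left out, 14.3% lay above 0 in A20 cKO naive and 17.5% in control day 3, or 8.90% and 12.2% with thinned cells. On day 2 of control 2 of 34 lay above 0, Ifitm3 and Ifi27l2a, against 15.7% of all genes, and 2 below, Ifih1 (−0.61, −1.12 to −0.08) and Epsti1 (−0.45, −0.76 to −0.13), of which Ifih1 was at 0.11 (−0.81 to 0.91) with thinned cells.

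The genes upstream of the members were read from lists of the pathway. The ligands were nearly absent. Ifnb1, interferon beta, gave 0, 2, 0 and 3 UMIs from naive to day 3 of control. The A20 cKO series gave 8, 4, 15 and 12 UMIs, at most 4.94 CPM, in A20 cKO day 2. These UMIs came from 2 and 3 cells in control day 1 and day 3 and from 3, 4, 5 and 9 cells in the A20 cKO libraries, and none of the cells had a barcode found in another library. Of the 18 type I ligand genes, Ifna2 and Ifnz were the only others with a UMI, at most 3 in a library, and Ifng, interferon gamma, had 2 UMIs in control day 2 and 0 elsewhere. The few cells with Ifnb1 held a median of 20 members in control day 3 and 22 to 27 in the A20 cKO libraries, against 6 to 17 in the other cells of the same libraries. In control day 1 the median was 5.5 members against 3. These cells were not thinned, so depth was not matched.

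Ifnar1, a receptor gene, had 98.7, 66.3, 94.5 and 149 CPM in the control libraries and 152 to 162 CPM in A20 cKO, with a log2 ratio of A20 cKO over control of 1.29 (1.13 to 1.45) on day 1. Ifnar1, Ifnar2, Jak1 and Tyk2 were within 2-fold of the naive library of their genotype on every day. Among the genes for ISGF3 and the interferon regulatory factors, Stat2 had 27.2, 11.0, 16.3 and 114 CPM in the control libraries and 76.7, 89.8, 114 and 131 CPM in the A20 cKO libraries. Irf7, the factor that amplifies interferon production, had 26.5, 15.9, 21.4 and 171 CPM and then 269, 352, 537 and 535 CPM. Stat2 was at least 2-fold lower on control day 1 than in control naive (−1.32, −1.80 to −0.79), the direction of most members that day. Irf9 stayed within 72.5 to 140.1 CPM. Irf7 was at least 2-fold higher in A20 cKO day 3 than in control day 3 (1.64, 1.53 to 1.76).

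Among negative regulators Socs3 had 599 CPM on control day 1 against 43.2 CPM in control naive, a log2 ratio of 3.78 (3.45 to 4.15), and 105 to 190.1 CPM in the A20 cKO libraries. Of the 13 upstream sensors and adaptors 11 could be compared between control day 3 and control naive, across the 2 sets of libraries. Tlr3, the endosomal sensor of double-stranded RNA, alone was at least 2-fold higher (1.39, 1.14 to 1.67). Of all genes 8.76% were at least 2-fold higher there, so this count is not read as particular to the list. Ikbke, a kinase that phosphorylates IRF3 and IRF7, had 0 to 0.823 CPM in the control and 4.62 to 13.8 CPM in the A20 cKO libraries. These levels rest on 0, 3, 1 and 6 UMIs in the control and 45, 14, 26 and 35 in the A20 cKO libraries. Ikbke was below the UMI minimum in every comparison, so no ratio is given for it. The chemokines differed between the genotypes. Cxcl10 had 3.09, 10.9, 14.4 and 153 CPM in the control libraries and 253, 353, 494 and 431 CPM in A20 cKO. Ccl5, which NF-kB induces too, had 15.4, 6.26, 27.2 and 34.9 CPM in the control libraries and 1435, 2001, 2756 and 2508 CPM in A20 cKO. On day 3 the log2 ratio of A20 cKO over control was 6.17 (5.99 to 6.36) for Ccl5 and 1.49 (1.37 to 1.62) for Cxcl10, against a median of 0.48 for the members.

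**Figure D5:**
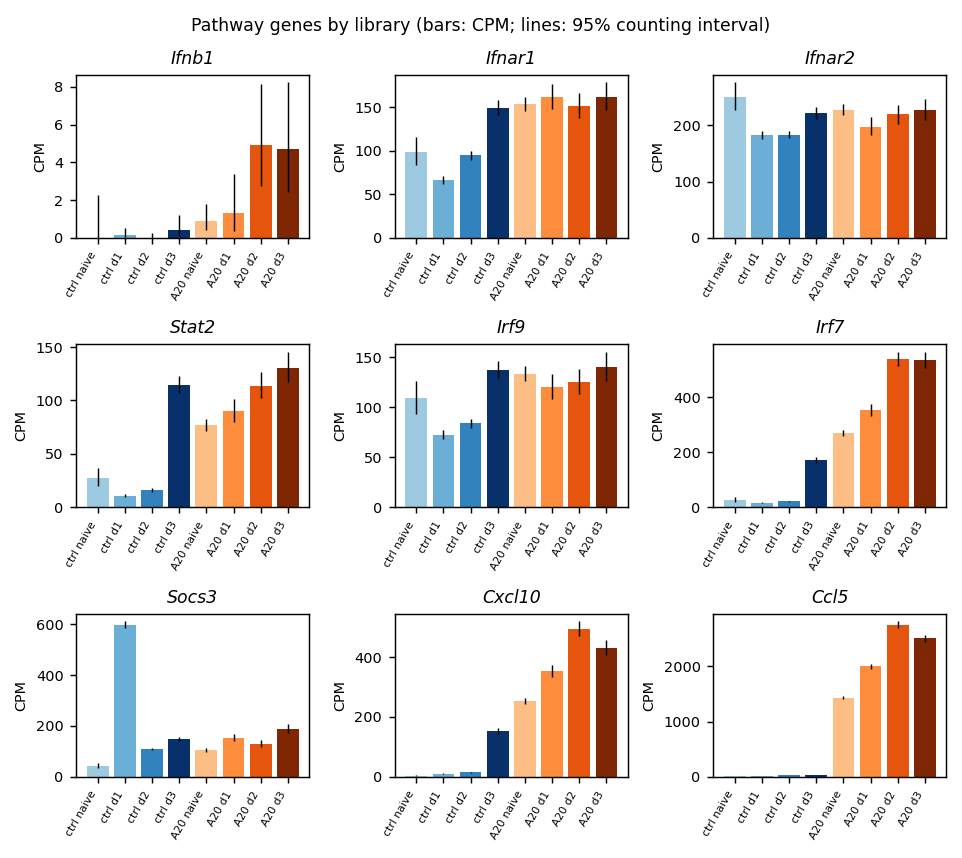
CPM with 95% counting intervals of 9 pathway genes in the 8 libraries, with control in blue and A20 cKO in orange. Stat2, Irf7 and Cxcl10 are low in control naive, day 1 and day 2 and high in the 5 others, Ifnar1, Ifnar2 and Irf9 differ less, Socs3 is at 599 CPM on control day 1, Ifnb1 rests on at most 15 UMIs a library, and Ccl5 is high in A20 cKO only.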

How the data were processed

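The 8 count matrices hold UMI counts per gene and cell, deposited by the authors without normalization. Per the submitters' notes they were made with Cell Ranger 2.1.1 on mm10. Cells with at least 1000 UMIs, at least 500 genes and at most 10% mitochondrial UMIs were kept, 14626 of 14883 barcodes. Sorting excluded doublets according to the study's methods, no doublet caller was run, and the 2% of cells with most UMIs were left out as an alternative. UMIs were summed per library, and 0.5 was added to each sum for log2 ratios. Exact Poisson, Clopper-Pearson and conditional binomial 95% intervals were computed with scipy 1.17.1. A level of 0 was bounded at 3 UMIs per library. A difference was counted at 2-fold. The ratio and thinning steps were tested on simulated counts. The members and lists were chosen with earlier results of these data known. Values in every library were given for the 2 members of each of 10 role groups with most UMIs, and each of 11 comparisons names the 3 largest and 3 smallest ratios. The other genes were picked after their values were seen. Positions come from GENCODE M21 on GRCm38 and promoters from RefSeq. Other sequences of the members were not used here.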

Additional observations from a re-analysis of the deposited data

Results flagged for a closer look

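In the comparison of each day with the naive library of the same genotype, some members were lower in control and higher in A20 cKO, with both 95% counting intervals clear of 0. On day 1 this held for 8 of the 28 members that could be compared in both genotypes, or 28.6%, against 4.59% of all genes. These were Isg15, Herc6, Trim25, Oasl2, Bst2, Parp14, Rnf213 and Ifi27l2a. On day 2 it held for 13 of 31, or 41.9%, against 2.30% of all genes, among them Ifit3, Ifit3b, Isg15, Oasl2, Ddx58, Dhx58, Xaf1 and Rtp4. On day 3 it held for 0 of 36, against 1.73% of all genes. On no day was a member higher in control and lower in A20 cKO. The share of all genes in that reverse direction is not given, so its absence is not read as particular to the members. The difference between the genotypes was not tested, since each group is 1 library, and the naive library of control belongs to another barcode-sharing set than the naive library of A20 cKO.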

How the results depend on the processing

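Each combination of genotype and day is 1 library and the labels give no replicate numbers. A fit that takes the days as replicates of a genotype was not run. Without barcodes found in more than 1 library, without the 2% of cells with most UMIs, with a stricter or no cell filter and with a minimum of 20 UMIs, no count, median or share given for a comparison moved beyond its limits, and 2 single-gene ratios did. With each cell weighted equally, members at least 2-fold above A20 cKO naive numbered 1, 10 and 17 on A20 cKO days 1, 2 and 3, the day 3 median was 0.95, and 23 single-gene ratios moved. Relative to the median gene the day 3 number was 13, and 11 single-gene ratios moved. Control day 3 as the control library, chosen after seeing the data and after its high levels were known, changes injury and library set together, so it does not test the genotype difference. With it the members at least 2-fold higher in A20 cKO naive, day 1 and day 2 numbered 4, 4 and 8, and the medians were −0.13, below 0, 0.017 and 0.41. Of all genes 0.964% were at least 2-fold higher in A20 cKO naive, and the shares for day 1 and day 2 are not given. For these alternatives the cause was not tested. Shares of cells with at least 5 members depend on depth by construction. In the order control naive to day 3, then A20 cKO naive to day 3, cells thinned to 1000 UMIs gave 3.87%, 1.17%, 1.92%, 34.2%, 32.1%, 39.1%, 74.7% and 78.1%. Without thinning they gave 28.9%, 28.8%, 50.9%, 77.2%, 65.8%, 73.6%, 97.3% and 98.0%. At least 3 members were found in 47.6%, 28.6%, 49.1%, 87.6%, 81.4%, 83.1%, 99.2% and 99.4%, and at least 8 in 2.59%, 1.05%, 1.55%, 37.8%, 35.4%, 39.8%, 77.8% and 82.7%. The log2 ratio of dividing cells became 0.34 in control day 3, 0.24 in A20 cKO day 1 and −0.014 in A20 cKO day 2 with thinned cells, an alternative also chosen after seeing the data. Promoter matches on the strand of the gene alone were found in 23.3% of members with a window, against 2.06% of all genes with a window. Control naive, with the fewest UMIs, limits the precision of every comparison made with it.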
